A study of Mus musculus with 9 samples.

Results

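The let-7 family guides are the miRNA strands that carry the let-7 seed, here mmu-let-7a-5p, mmu-let-7b-5p, mmu-let-7c-5p, mmu-let-7d-5p, mmu-let-7e-5p, mmu-let-7f-5p, mmu-let-7g-5p, mmu-let-7i-5p and mmu-miR-98-5p. They were taken by name, 9 of the 986 miRNA rows used, and all 9 had rows in the table. They were read in small RNA libraries of mouse embryos at embryonic day 9.5, collected after heart and tail bud were cut away. The allelic series removes seed families from the miR-17~92 cluster, and each genotype has 1 library. Single families were deleted in the mutants delta miR-17, delta miR-18, delta miR-19 as well as delta miR-92. The mutant delta miR-17,18 lacked both miR-17 and miR-18, delta miR-17,18,92 kept only miR-19, and the full deletion lacked the whole cluster. The wild-type embryo, with the full cluster, was the reference. Strain, the number of embryos in a library and whether mutants were homozygous are not stated in the labels.

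let-7 was found as a gene that times larval development in the nematode Caenorhabditis elegans, and its mouse copies are known for rising as cells differentiate. The guide strand is loaded into an Argonaute protein and pairs through its seed with target mRNAs, of which Lin28a, Lin28b, Hmga2 and Igf2bp mRNAs are well known. In early embryos the LIN28 proteins bind let-7 precursors and hold back their maturation, so that the level of the guide need not follow the level of the primary transcript.

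The mature sequences are shown because members that differ by 1 base share a seed but were counted apart. They are RefSeq sequences on GRCm38.p6, 5′ to 3′, with the seed (bases 2 to 8) in capitals.
mmu-let-7a-5p: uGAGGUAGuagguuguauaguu
mmu-let-7b-5p: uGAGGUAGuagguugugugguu
mmu-let-7c-5p: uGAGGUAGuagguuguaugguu
mmu-let-7d-5p: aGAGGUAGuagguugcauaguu
mmu-let-7e-5p: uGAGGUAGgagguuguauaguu
mmu-let-7f-5p: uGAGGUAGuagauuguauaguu
mmu-let-7g-5p: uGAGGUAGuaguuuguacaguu
mmu-let-7i-5p: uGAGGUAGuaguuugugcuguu
mmu-miR-98-5p: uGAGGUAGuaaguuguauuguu

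All 9 guides were 22 bases long and had the seed GAGGUAG. Counted from 1 at the 5′ end, with the base of let-7a first, let-7c differed from let-7a by A19G, let-7e by U9G and let-7f by G12A. let-7b carried A17G and A19G, let-7d U1A and U16C, let-7g G12U and U18C, and miR-98 G11A and A19U. let-7i was the most distant from let-7a, with G12U, A17G, U18C and A19U. let-7b and let-7c differed from each other by 1 base. The labels and headers do not say how reads that fit several loci were assigned.

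The 9 guides come from 12 hairpins, placed here by the GENCODE annotation of GRCm38.p6, while the deposited table was made on mm9. Mirlet7a-1, Mirlet7f-1 and Mirlet7d lie together on chromosome 13 in exons of the long noncoding RNA 6720427I07Rik (minus strand, 48536012 to 48538272). Mirlet7c-2 and Mirlet7b lie 621 bases apart in exons of Lncppara on chromosome 15 (plus strand, 85706603 to 85707403). Mirlet7f-2 and Mir98 lie 785 bases apart in introns of Huwe1, which encodes a ubiquitin ligase, on chromosome X (plus strand, 151912346 to 151913321). Mirlet7e lies in an intron of Spaca6 on chromosome 17 (plus strand, 17830352 to 17830444), 367 bases from Mir125a. Mirlet7c-1 lies 656 bases from Mir99a in an intron of Mir99ahg on chromosome 16 (plus strand, 77599657 to 77599750). Mirlet7a-2 lies on chromosome 9 (plus strand, 41536716 to 41536811) in introns of 3110039I08Rik and Gm49317, between Mir100 and Mir125b-1. Mirlet7g lies in an intron of Wdr82 on chromosome 9 (plus strand, 106178840 to 106178927), and Mirlet7i in an exon of D630033A02Rik on chromosome 10 (minus strand, 122985640 to 122985724).

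The genotype libraries held between 6564471 and 18481380 miRNA reads. In the libraries with miR-17 deleted, miR-17-5p reached at most 180 nRPM, against at least 17331 nRPM where it was kept. The same held for miR-19a-3p, at most 15.1 against at least 3157 nRPM. nRPM are reads divided by the authors' size factor and rescaled to the range of RPM values, and 3 reads, the limit that a count of 0 allows, stood for 0.187 to 0.470 nRPM. Although the heart had been removed, all 4 heart markers were read, with a summed level of 1583 to 5261 nRPM, nearly all of it miR-1a-3p, which is also made in skeletal muscle. Of the other heart markers, miR-208a-3p ran from 6.27 nRPM in wild type to 176 nRPM in delta miR-17,18. miR-499-5p ran from 10.3 to 60.3 nRPM in the same libraries. miR-208b-3p ran from 8.89 nRPM in delta miR-17 to 28.4 nRPM in the full deletion, with 24.6 nRPM in wild type. The summed level of the 3 neural markers ran from 1741 to 5132 nRPM, of the 3 erythroid markers from 377 to 1020 nRPM, of the 2 endothelial markers from 7371 to 17558 nRPM and of the 7 markers of pluripotent cells from 4984 to 8503 nRPM. Their part in the results on let-7 was not tested, and in these bulk libraries fewer cells of a type and less RNA per cell cannot be told apart.

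The let-7 guides made up a small share of the embryos' miRNA. All 9 together took 0.441% of the miRNA reads in delta miR-17, 0.363% in delta miR-18, 0.349% in delta miR-19, 0.353% in delta miR-92, 0.315% in delta miR-17,18, 0.406% in delta miR-17,18,92 and 0.274% in the full deletion, against 0.275% in wild type. The share averaged 0.347% ± 0.0586 (SD over 8 libraries of different genotypes), from 19477 to 67005 reads a library. Exact binomial (Clopper-Pearson) 95% intervals were narrow, 0.271% to 0.278% in the full deletion and 0.272% to 0.279% in wild type. All intervals given here cover counting error only, since the reads carried no molecular identifiers.

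The share of reads on rows named for the cluster's miRNAs differed between libraries as well, 1.41% in the full deletion and 29.03% in wild type. These rows were taken by name, not by locus. Where their reads in the full deletion, which lacks the cluster, came from was not tested. Of the reads outside miR-17~92, the let-7 guides took 0.278% in the full deletion and 0.388% in wild type. As a summed level, the family stood at 4230 nRPM in delta miR-17, 4181 nRPM in delta miR-18, 3411 nRPM in delta miR-19, 3314 nRPM in delta miR-92, 3339 nRPM in delta miR-17,18, 3469 nRPM in delta miR-17,18,92 and 2601 nRPM in the full deletion, against 3051 nRPM in wild type. The full deletion was the lowest library and the other 6 mutants were above wild type. Without let-7e the ratio of delta miR-17,18,92 to wild type was 0.984, against 1.14 with it, and 3 of the 9 guides were above wild type in that library. The ratio of the full deletion to wild type was 0.853 (95% exact conditional interval 0.837 to 0.869), and it was 0.872 with TMM factors, 0.996 with plain read totals and 0.717 with totals outside the cluster. With 1 library of each genotype no test of the summed level was made.

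**Figure D1:**
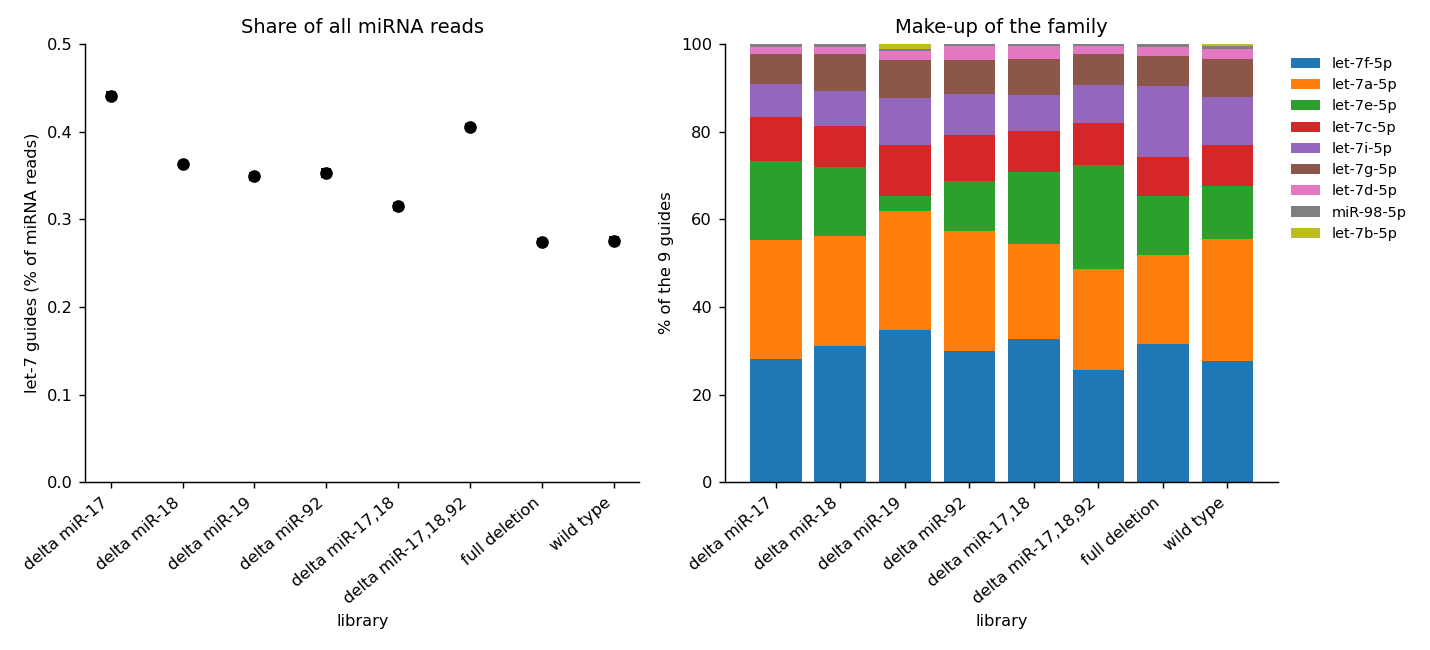
Share of miRNA reads taken by the 9 let-7 guides in each library (left, percent, with exact 95% intervals that are mostly hidden by the points) and the make-up of the family (right, percent of the summed nRPM of the 9 guides), mutants first and wild type last. The share ran from 0.274% in the full deletion to 0.441% in delta miR-17, and let-7e-5p took from 3.503% of the family in delta miR-19 to 23.9% in delta miR-17,18,92.

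The family was dominated by let-7f and let-7a, which together were between 48.6% and 61.8% of it. mmu-let-7f-5p, the most abundant, stood at 1188 nRPM in delta miR-17, 1298 in delta miR-18, 1187 in delta miR-19, 992 in delta miR-92, 1092 in delta miR-17,18, 886 in delta miR-17,18,92 and 821 in the full deletion, against 847 nRPM in wild type. mmu-let-7a-5p stood at 1149 nRPM in delta miR-17, 1047 in delta miR-18, 921 in delta miR-19, 910 in delta miR-92, 720 in delta miR-17,18, 799 in delta miR-17,18,92 and 527 in the full deletion, against 843 nRPM in wild type. Both were lowest in the full deletion, and let-7f was above let-7a in each of the 8 libraries although the 2 guides were almost equal in wild type. let-7f came 152nd and let-7a 153rd of the miRNAs in wild type by level.

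mmu-let-7c-5p, which comes from Mirlet7c-1 and Mirlet7c-2, followed let-7a closely. It stood at 421 nRPM in delta miR-17, 384 in delta miR-18, 397 in delta miR-19, 349 in delta miR-92, 308 in delta miR-17,18, 332 in delta miR-17,18,92 and 228 in the full deletion, against 291 nRPM in wild type. mmu-let-7g-5p, the guide from the Wdr82 intron, stood at 290 nRPM in delta miR-17, 349 in delta miR-18, 288 in delta miR-19, 257 in delta miR-92, 275 in delta miR-17,18, 245 in delta miR-17,18,92 and 179 in the full deletion, against 264 nRPM in wild type. Both guides had their lowest level in the full deletion.

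mmu-let-7i-5p ran the other way there. It stood at 323 nRPM in delta miR-17, 340 in delta miR-18, 370 in delta miR-19, 307 in delta miR-92, 278 in delta miR-17,18, 296 in delta miR-17,18,92 and 421 in the full deletion, against 333 nRPM in wild type. The full deletion was its highest library, where it made up 16.2% of the family, against 10.9% in wild type. Over all 8 libraries its range was nevertheless the narrowest of the 9 guides, 1.52-fold.

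The remaining guides were rarer. mmu-let-7d-5p stood at 69.0 nRPM in delta miR-17, 68.8 in delta miR-18, 76.2 in delta miR-19, 105 in delta miR-92, 95.2 in delta miR-17,18, 69.3 in delta miR-17,18,92 and 55.2 in the full deletion, against 69.7 nRPM in wild type. Its hairpin lies beside those of let-7a-1 and let-7f-1, and let-7a was 7.57 times as high as let-7d in delta miR-17,18 and 16.6 times as high in delta miR-17. mmu-miR-98-5p stood at 23.0 nRPM in delta miR-17, 22.2 in delta miR-18, 15.1 in delta miR-19, 15.5 in delta miR-92, 14.7 in delta miR-17,18, 10.4 in delta miR-17,18,92 and 15.0 in the full deletion, against 22.6 nRPM in wild type. The libraries of delta miR-17, delta miR-18 and wild type were close together for miR-98, and the other 5 were lower.

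**Figure D2:**
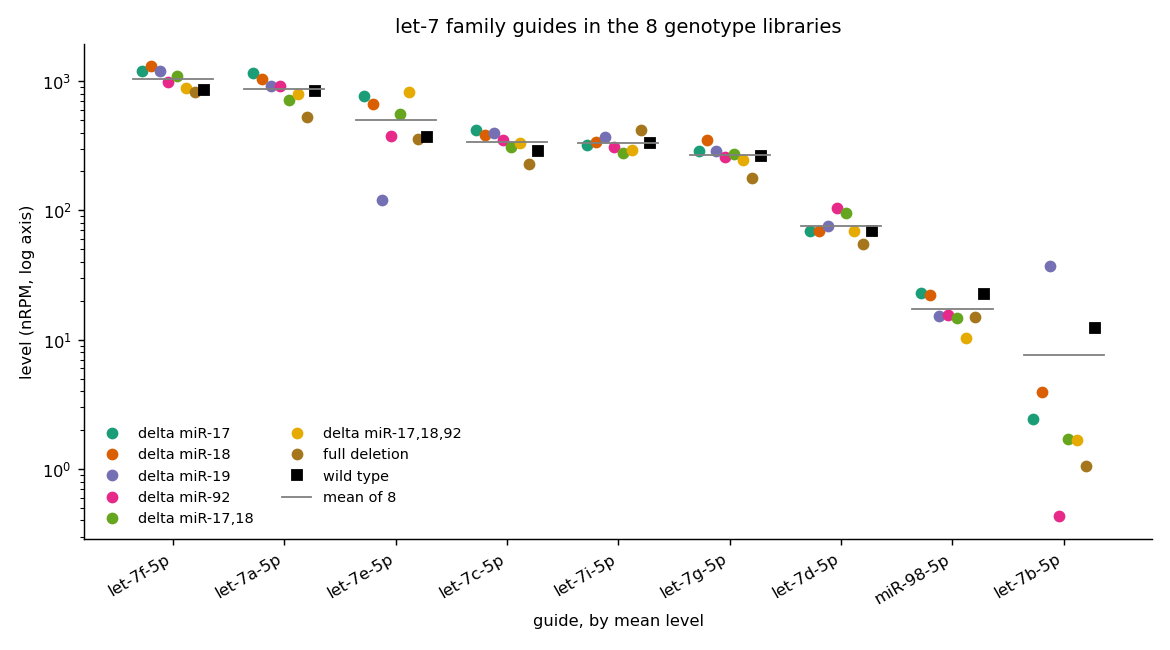
Level of each let-7 family guide (nRPM, log axis) in the 7 mutant libraries (circles) and the wild-type library (squares), ordered by mean level (grey line). let-7f-5p and let-7a-5p are highest, with means of 1039 and 864 nRPM, let-7e-5p has 1 low library (delta miR-19, 119 nRPM), and let-7b-5p is spread from 0.429 to 37.0 nRPM.

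Ordered by the mean over the 8 libraries, the guides ran let-7f (1039 nRPM), let-7a (864), let-7e (504), let-7c (339), let-7i (333), let-7g (269), let-7d (76.0), miR-98 (17.3) and let-7b (7.58). These levels are per guide of equal length and were not corrected for how well each sequence ligates or amplifies. Neighbours in this order were compared by a two-sided exact sign-flip permutation test on the log2 level differences within the libraries, adjusted by Benjamini-Hochberg over the 8 pairs, where the smallest p the design allows was 0.00781. 6 of the 8 neighbouring pairs were separated, and let-7e against let-7c (adjusted p = 0.295) and let-7c against let-7i (adjusted p = 0.977, exact permutation test) were not. let-7f was above let-7a by a mean log2 level difference of 0.28 ± 0.24 (SD, 8 of 8 libraries; adjusted p = 0.0208, exact permutation test), and let-7g above let-7d by 1.81 ± 0.32 (8 of 8; adjusted p = 0.0208, exact permutation test). The 8 libraries are of different genotypes, so the test measures whether the order holds across the allelic series. The order and its pairs were taken from the same 8 libraries, so the p-values describe that order and are no independent test of it. The count of separated pairs was 3 without delta miR-92, delta miR-17,18, the full deletion or wild type.

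All but let-7e of the more abundant guides had a narrower range than the median of other miRNAs averaging 100 nRPM or more. That set had no upper limit on level. Among the 6 guides that averaged 100 nRPM or more (let-7a, c, e, f, g and i), the median ratio of the highest to the lowest library was 1.90, against 2.36 among the 313 other miRNAs at that level outside miR-17~92. let-7i at 1.52-fold and let-7f at 1.58-fold were exceeded by 93.3% and 90.4% of those others. let-7c ranged 1.85-fold, let-7g 1.95-fold and let-7a 2.18-fold, exceeded by 75.4%, 71.9% and 58.1% of those others. The rarer let-7d and miR-98 ranged 1.90-fold and 2.21-fold. let-7e was the exception at that level, with 6.94-fold over the 8 libraries and 2.34-fold over the 7 without delta miR-19.

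Across the 8 libraries log2 levels of let-7a and let-7c had a Pearson r of 0.94, let-7a and let-7g of 0.86, and let-7f and let-7g of 0.84. let-7i and let-7d had an r of -0.70. Of the 36 pairs of guides 25 had a positive r. These are descriptions over 8 libraries that share their scaling, with no test.

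The first question was whether let-7 guides differed between libraries with and without a seed family of the cluster. A limma model over the 8 libraries had an additive term for each of the 4 families and 3 residual degrees of freedom. Counts are given over the 538 miRNAs not of the cluster with a mean of 10 nRPM or more, 8 of the 9 let-7 guides among them. The cluster's own miRNAs above that mean were in the same fit and the same adjustment, also with edgeR and DESeq2. Their changes follow from the deletions, and they can lower the adjusted p of other miRNAs. miR-98, at 17.3 nRPM, was just inside that threshold and let-7b, at 7.58 nRPM, just outside. For the miR-17 term 0 of 8 let-7 guides passed an adjusted p of 0.05 (limma, Benjamini-Hochberg), against 0% of all 538. The share of all tested was also 0% for the miR-18 term, 0% for the miR-19 term and 0% for the miR-92 term, again with 0 of 8 guides. At an unadjusted p under 0.05 limma had 11 of the 538 for the miR-17 term, 19 for the miR-18 term, 17 for the miR-19 term and 7 for the miR-92 term, and 1 let-7 guide, for the miR-19 term. edgeR called 0 of 8 guides for each term.

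That guide was let-7e. Its miR-19 coefficient was -1.47 ± 0.37 on the log2 scale (SE, limma, adjusted p = 0.484), lower where miR-19 was deleted. DESeq2's Wald test gave -1.49 with an adjusted p of 0.0353, and its calls for that term covered 0.372% of the 538, which were 2 miRNAs. Without the delta miR-19 library the limma coefficient was -1.09 (adjusted p = 0.964). Over the 8 fits that each left out 1 library the adjusted p ran from 0.0767 to 0.981. For the other 7 guides tested the limma coefficients of all 4 terms lay between -0.40 and 0.34. The median coefficient of the 8 guides was -0.08 for the miR-17 term, -0.05 for the miR-18 term, -0.20 for the miR-19 term and -0.20 for the miR-92 term, beside medians over all tested between -0.01 and 0.02.

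Each mutant was then set against wild type, 1 library each, by size alone. Over the 6 guides that averaged 100 nRPM or more, 1 was 2-fold or more higher in delta miR-17 and 0 lower, beside 2.56% higher and 4.15% lower among the 313 other miRNAs. In delta miR-18 it was 0 of 6 in either direction, beside 7.67% higher and 7.35% lower of the others. In delta miR-19, 1 of 6 was lower and 0 higher, beside 6.07% lower and 3.51% higher of the others. In delta miR-92 it was 0 of 6, beside 7.03% higher and 7.35% lower. In delta miR-17,18 it was 0 of 6, although 11.8% of the others were higher and 12.8% lower. In delta miR-17,18,92, 1 of 6 was higher and 0 lower, beside 7.35% and 7.99% of the others. In the full deletion it was 0 of 6, beside 8.63% higher and 8.31% lower of the others. The guide was let-7e each time, so the other 5 stayed within 2-fold of wild type in all 7 mutants.

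With let-7e included, the 6 guides leaned to one side of wild type in some libraries. The median log2 ratio of the 6 guides to wild type was 0.47 in delta miR-17 and 0.40 in delta miR-18, where the 313 others had medians of 0.02 and -0.03. In the full deletion it was -0.20, where the others had 0.11. With plain read totals the full-deletion median of the 6 was 0.02 and that of the others 0.34, and with totals outside the cluster they were -0.45 and -0.14, so the direction of the 6 against wild type turned with the scaling. A scaling moves both medians by the same amount.

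Member by member, the full deletion stood at 0.624 of wild type for let-7a (95% exact interval 0.601 to 0.649), 0.679 for let-7g (0.634 to 0.727) and 0.784 for let-7c (0.737 to 0.835). let-7f was at 0.969 (0.935 to 1.003) and let-7e at 0.962 (0.913 to 1.01), both with intervals that reach 1. let-7i was at 1.27 (1.20 to 1.33), with the authors' size factors the only one of the 9 guides above wild type in the full deletion. Another scaling moves all ratios of a library by 1 factor, which these intervals do not cover. The summed ratio of the full deletion was 0.853 with the size factors, 0.996 with plain read totals and 0.717 with totals outside the cluster. In delta miR-17,18,92 miR-98 was at 0.461 of wild type (0.364 to 0.583), on 150 and 144 reads, and in delta miR-92 let-7d was at 1.503 (1.33 to 1.69).

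**Figure D3:**
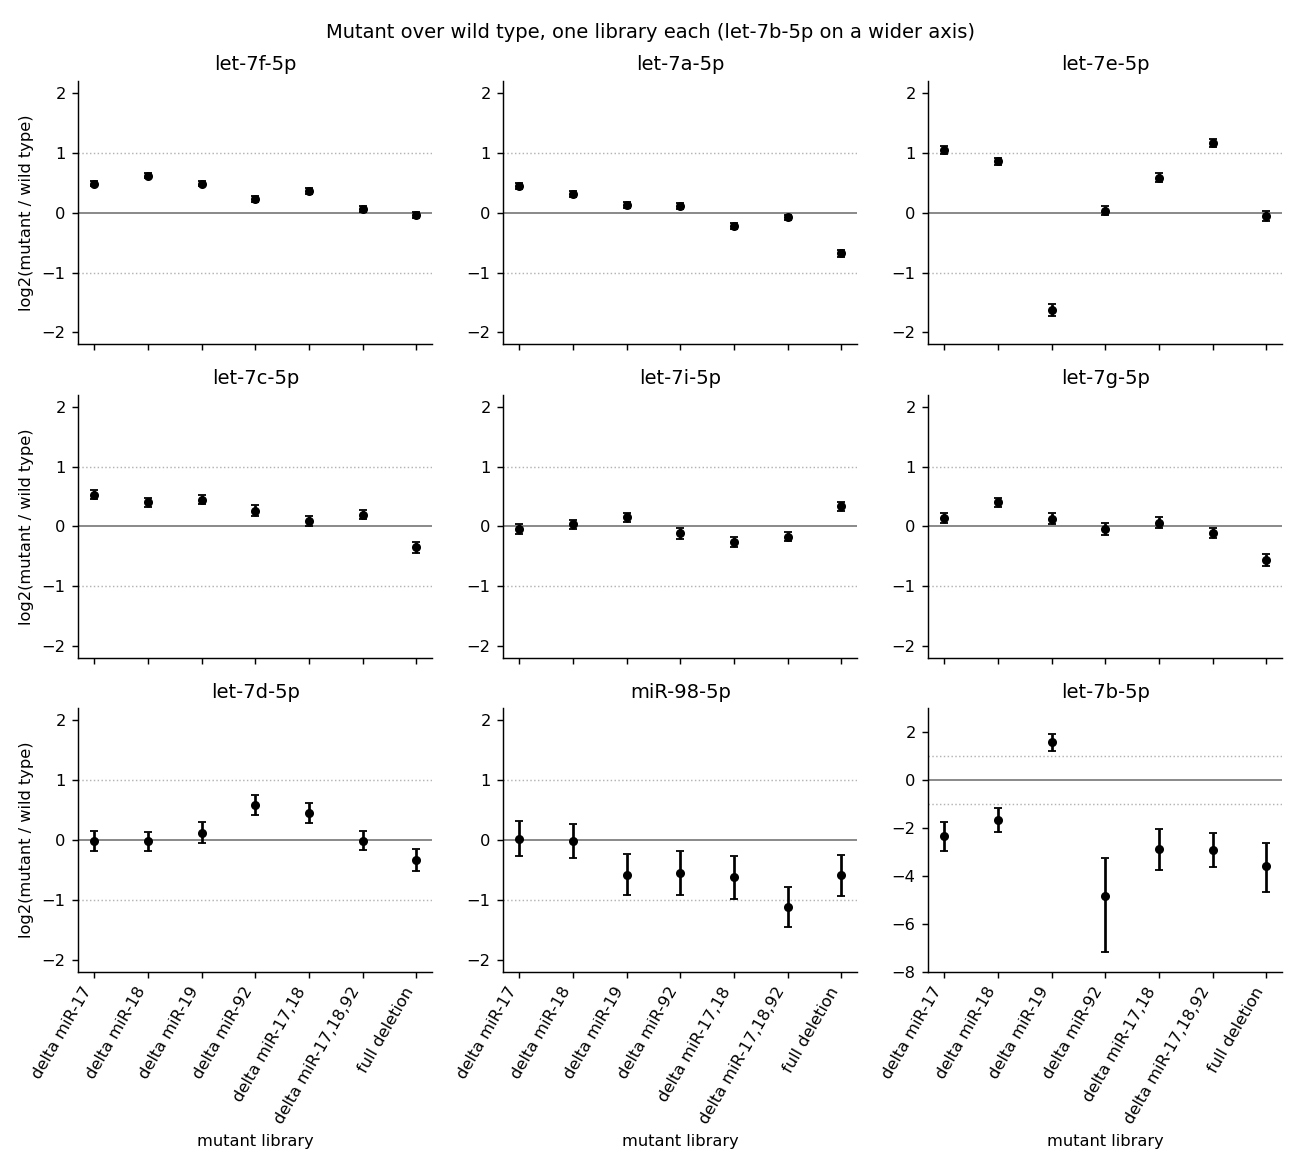
Log2 ratio of each mutant library to the wild-type library for the 9 guides, with exact 95% intervals (counting error only) and dotted lines at 2-fold; let-7b-5p has a wider axis. Among the guides averaging 100 nRPM or more, let-7e-5p passes the dotted lines in delta miR-17, delta miR-19 and delta miR-17,18,92, and let-7b-5p lies below wild type in 6 of 7 mutants.

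mmu-let-7e-5p stood at 765 nRPM in delta miR-17, 667 in delta miR-18, 119 in delta miR-19, 378 in delta miR-92, 554 in delta miR-17,18, 829 in delta miR-17,18,92 and 355 in the full deletion, against 368 nRPM in wild type. The ratio to wild type was 2.08 in delta miR-17 (1.99 to 2.17), 2.25 in delta miR-17,18,92 (2.15 to 2.35) and 0.324 in delta miR-19 (0.302 to 0.348). The full deletion lacks miR-19 as well. let-7e there, at 355 nRPM, was close to the 368 nRPM of wild type and below the 829 nRPM of delta miR-17,18,92, the mutant that kept only miR-19. Of the 313 other miRNAs 5.43% had a wider range than let-7e.

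Against wild type, neither the partner arm of the let-7e hairpin nor the miRNAs encoded beside it were as low as let-7e-5p in delta miR-19. let-7e-3p stood at 8.73 nRPM there (83 reads), against 1.57 nRPM (10 reads) in wild type, its lowest library. It was above wild type in all 7 mutants, 2.60 to 5.63 times, with the full deletion the highest at 8.82 nRPM (84 reads). The partner arm made up 6.81% of the hairpin's reads in delta miR-19 (95% exact interval 5.46% to 8.37%), against 0.423% in wild type (0.203% to 0.777%), with a median of 1.05% over the 8 libraries. miR-125a-5p, a homologue of nematode lin-4 encoded next to let-7e, stood at 993 nRPM in delta miR-19, against 1200 nRPM in wild type. Its ratio to wild type there was 0.827 (95% exact interval 0.803 to 0.853). miR-99b-5p, of the miR-99/100 family and known to share that transcript, stood at 7745 nRPM in delta miR-19, against 6812 nRPM in wild type. let-7e was 12.03% of miR-125a in delta miR-19, against a median of 41.3%, and 1.54% of miR-99b, against a median of 7.64% over the 8 libraries.

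mmu-let-7b-5p was the rarest guide and the most variable. It stood at 2.44 nRPM in delta miR-17 (33 reads), 3.93 in delta miR-18 (63 reads), 37.0 in delta miR-19 (352 reads), 0.429 in delta miR-92 (3 reads), 1.72 in delta miR-17,18 (15 reads), 1.66 in delta miR-17,18,92 (24 reads) and 1.05 in the full deletion (10 reads), against 12.4 nRPM in wild type (79 reads). Delta miR-19 was thus 2.99 times wild type (95% exact interval 2.34 to 3.87), and the other 6 mutants were below wild type, delta miR-92 at 0.0347 (0.00701 to 0.105). When the filter on low levels was left out, so that let-7b entered the limma fit, its miR-92 coefficient was -1.79 ± 0.66 (SE, limma, adjusted p = 0.99) and its miR-19 coefficient 1.57 ± 0.71 (SE, limma, adjusted p = 0.978).

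The partner arm let-7b-3p ranged only from 0.630 to 3.29 nRPM, on 6 to 37 reads. It made up 4.61% of the hairpin's reads in delta miR-19 (2.71% to 7.27%) and 82.4% in delta miR-92 (56.6% to 96.2%), against 21.0% in wild type (13.5% to 30.3%). let-7c-5p, 1 base different from let-7b and in part from the same transcript, ranged 1.85-fold. let-7b was 9.33% of let-7c in delta miR-19, 0.123% in delta miR-92 and 4.26% in wild type.

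**Figure D4:**
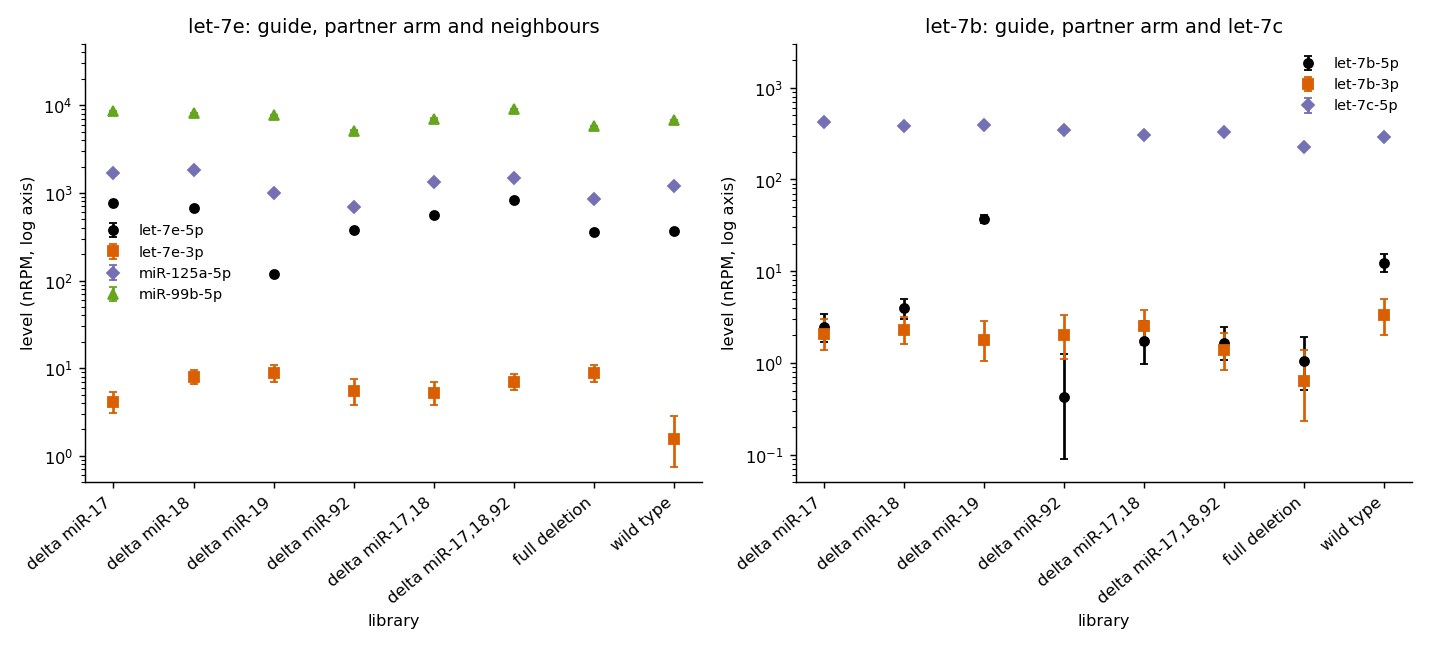
Levels (nRPM, log axis, exact Poisson 95% intervals) of let-7e-5p with its partner arm and the neighbouring miR-125a-5p and miR-99b-5p (left), and of let-7b-5p with its partner arm and let-7c-5p (right). In delta miR-19 let-7e-5p is at 119 nRPM while its partner arm is at 8.73 nRPM and miR-125a-5p at 993 nRPM, and let-7b-5p is at 37.0 nRPM while let-7b-3p is at 1.79 nRPM.

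Partner arms were scarce throughout. The 12 named 3′ arms of the let-7 and miR-98 hairpins summed to between 31.6 and 52.1 nRPM, and the guides were 63.6 to 106 times as high. That sum holds both let-7a-1-3p and let-7c-2-3p, which have the same sequence, so the same reads can enter it from both rows. In delta miR-92 these rows stood at 7.44 and 6.73 nRPM. The sums may thus be too high and the ratios too low. 5 of the 12 had no read in at least 1 genotype library. let-7d-3p was the highest, from 6.30 nRPM in delta miR-17,18,92 to 30.4 nRPM in wild type, and was the only partner arm to average 10 nRPM or more. It made up 8.34% of the let-7d hairpin's reads in delta miR-17,18,92 and 30.4% in wild type. For let-7g the partner arm was at most 1.15% of the hairpin's reads, and for let-7i at most 0.883%.

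2 partner arms show how sequence limits the count. They are printed with no seed marked because it is the whole that matters.
mmu-let-7a-1-3p: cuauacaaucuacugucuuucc
mmu-let-7c-2-3p: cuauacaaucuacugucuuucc
They are the same sequence, and their read counts were identical in 5 of the 8 libraries, so these reads cannot be assigned to chromosome 13 or 15.

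Guides that share primary transcripts with let-7 copies were mostly the higher, with let-7a above miR-100 in delta miR-17 (1149 against 1083 nRPM) and level with it in delta miR-92 (910 against 908 nRPM). miR-100-5p and miR-125b-5p, whose hairpins flank Mirlet7a-2, stood at 680 and 1425 nRPM in the full deletion, against 909 and 1793 nRPM in wild type. miR-99a-5p, beside Mirlet7c-1, ran from 521 nRPM in delta miR-92 to 1043 nRPM in delta miR-17, and let-7c was 31.6% to 67.1% of it. let-7a was 59.2% to 106% of miR-100, with the lowest value in delta miR-18 and the highest in delta miR-17. Since let-7a and let-7c each come from a second locus, these ratios do not compare arms of 1 transcript alone.

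Among 323 miRNAs outside the let-7 hairpins that averaged 100 nRPM or more, those whose log2 level was most like the log2 summed level of the family over the 8 libraries were miR-135a-5p (Pearson r = 0.83), miR-33-5p (r = 0.83) and miR-100-5p (r = 0.80). All 3 were lowest in the full deletion. The least like was miR-151-3p (r = -0.87), which ran from 2976 nRPM in delta miR-18 to 5115 nRPM in the full deletion. Of the 323, 150 had a positive r, and with 8 libraries that share their scaling these values are descriptions.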

How the data were processed

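The submitters' processing notes list Subread 1.4.2 with its featureCounts, the aligner STAR 2.2.0, SAMtools 0.1.19 and mm9 as build, without settings. The deposited signal values are reads divided by a size factor for each library; in this re-analysis 100% of the values were whole multiples of 1 read, within 0.001 reads, and the reads were recovered. Of 1046 deposited rows 986 were used, since rows of 1 accession with totals within 10% were counted once and the higher kept. let-7a, let-7c and let-7f had 2 such rows, which differed by at most 1.24% in the genotype libraries. Signal values times 0.1159 give nRPM, and log2 values had a pseudocount of 1 nRPM.

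Genotypes came from the labels, and undetermined reads entered no comparison. limma 3.58.1 (R 4.3.3) was the main test, with a filter of 10 nRPM, and was tested on simulated data. The simulated counts had a common dispersion for all miRNAs, so they do not measure how often the fit misses a change in these data. edgeR 4.0.16 (quasi-likelihood) and DESeq2 1.42.0 ran on the recovered reads. Permutation tests and intervals used SciPy 1.17.1 in Python 3.11.15. The guides, all partner arms, the neighbours on shared transcripts and the 3 most and 1 least alike miRNAs were named by rule, and members, lists and rules were chosen with earlier results of these data known. Sequences are from RefSeq, where all 9 guides matched.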

Additional observations from a re-analysis of the deposited data

Results flagged for a closer look

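The library of undetermined reads has no genotype and entered no comparison, and it held let-7 guides above the limit that a count of 0 allows. They took 0.269% of its reads, beside 0.274% to 0.441% in the genotype libraries. That share counts let-7f-5p by its row of 2205 reads, and would be lower with its row of 1061 reads. let-7b-5p stood at 172 nRPM there on 489 reads, beside 0.429 to 37.0 nRPM in the genotype libraries, and was 77.7% of let-7c-5p. The 2 rows of let-7f-5p, which differed by at most 1.24% in the genotype libraries, held 2205 and 1061 reads there, a ratio of 2.08.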

How the results depend on the processing

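Each genotype has 1 library, so no p-value here measures the spread between embryos of 1 genotype, and the ratios to wild type rest on a single wild-type library. Mutant and wild-type libraries were not paired, since each genotype has 1 library and the labels give no replicate numbers. The sign-flip test was paired within libraries. Of 145 alternative values for 14 results, 133 kept their direction and side of the threshold or stayed within the limits used. A reversal could be recorded only for the let-7e coefficient, and 0 were. The median ratio of the 6 guides in the full deletion, whose direction turned with the scaling, is not among the 14 results. DESeq2 called 1 of 8 let-7 guides for the miR-19 term, let-7e, where limma called 0. Fits that left out 1 library called 0 of 8 let-7 guides for the miR-17, miR-18 and miR-92 terms. The same held for the miR-19 term where both libraries lacking miR-19 stayed in. Over all miRNAs tested, these fits called 1 of 539 for the miR-17 and for the miR-18 term without delta miR-17. Without delta miR-92 they called 1 of 537 for the miR-18 and for the miR-19 term, and otherwise 0. With a 1.5-fold threshold the guides past it numbered 2 of 6 in delta miR-18 (others 55 higher and 47 lower of 313), 1 in delta miR-17,18 (66 and 80) and 1 in the full deletion (69 and 55). The count stayed at 1 in delta miR-17 (others 42 higher and 41 lower of 313), delta miR-19 (51 and 42) and delta miR-17,18,92 (60 and 49). In delta miR-92 it stayed at 0 (61 and 58). Against the median of the 8 libraries in place of wild type the counts were 0 in delta miR-17 (others 4 higher and 10 lower of 313) and 0 in delta miR-17,18,92 (6 and 8). Separated neighbours numbered between 3 and 6 when 1 library was left out, with 7 libraries left for the exact test. The median let-7 share was 0.440% of reads outside miR-17~92, against 0.351% of all miRNA reads. The let-7e coefficient for miR-19 ran from -1.58 to -1.42 under the scalings, pseudocounts, filters and other tools, and from -1.81 to -1.09 when 1 library was left out.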
